A study of Mus musculus with 12 samples.

Results

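The 10 genes described here are core factors and developmental pluripotency associated (*Dppa*) genes of embryonic stem cells (ESCs): *Pou5f1*, *Sox2*, *Nanog*, *Sall4*, *Lin28a*, *Utf1*, *Dppa2*, *Dppa3*, *Dppa4* and *Dppa5a*. They were taken by symbol, and every probe set annotated to 1 of them was used, 15 of 45101 probe sets on the array. All 15 passed the filter on low signal, and after probe sets were averaged per gene the 10 genes stood among 16432 genes tested. The RNA came from 6 lines of *Ring1A-/-*; *Ring1B fl/fl*; *Rosa26::CreERT2* mouse ESCs of a 129/B6 hybrid background, with 1 array before 4-hydroxytamoxifen (OHT-) and 1 array on day 2 (OHT+, 800 nM for 24 h) for each line. All lines lacked Ring1A at both times, so the arrays before OHT are themselves of *Ring1A-/-* cells. OHT activates CreERT2, which deletes the endogenous *Ring1B* and leaves only what a stably transfected, puromycin-selected construct supplies. That construct was mock in 1 line, WT Ring1B in 2 lines (#1 and #3), Ring1B (I53S) in 2 lines (#1 and #4) and Ring1B (I53A) in 1 line (#1). The sample titles and the paper say only mock, which is read here as an empty vector. Both substitutions lie in the RING domain, where they disturb the contact with the E2 enzyme, and the 3 lines that carry them are called the mutant lines. Neither an array of ESCs with Ring1A nor a line without OHT-inducible Cre was analysed here.

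Pluripotent ESCs are held in their undifferentiated state by a small circuit of transcription factors. Oct4, the POU factor encoded by *Pou5f1*, and Sox2, an HMG box factor, bind DNA next to each other at composite octamer and Sox sites, often together with the homeodomain factor Nanog, and the 3 activate their own genes and each other. *Sall4* encodes a zinc finger factor that acts with Oct4, *Lin28a* an RNA binding protein that blocks let-7 maturation, and *Utf1* a chromatin protein of undifferentiated cells. Dppa2 and Dppa4 are paralogous SAP domain proteins that work as a pair, Dppa3 (Stella) is a maternal and germ cell factor that guards DNA methylation, and *Dppa5a* encodes a small KH domain protein. Polycomb repressive complex 1 (PRC1), whose catalytic subunits are Ring1A and Ring1B, monoubiquitinates histone H2A and represses developmental regulators. The question the lines address is whether the ligase activity of Ring1B is needed once endogenous Ring1B is gone.

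Promoter windows of 300 bases, from 250 before to 50 after the annotated start, are shown for the 3 factors of the core circuit because their own genes are among the sites that the circuit uses. The sequences are from RefSeq on GRCm38.p6, the reference table used here, and are written 5′ to 3′ on the gene's strand. Capitals mark matches to the octamer letters ATTTGCAT, its shortened form TTTGCAT, the Sox-type letters CATTGTT and ACAAAGG, and the shortened form CATTGT, searched on both strands. The shortened forms are contained in the longer ones and were added after the sequences had been read. The *Pou5f1* window is chr17:35505782-35506081, that of *Sox2* chr3:34649745-34650044 and that of *Nanog* chr6:122707239-122707538, all on the plus strand.
Pou5f1: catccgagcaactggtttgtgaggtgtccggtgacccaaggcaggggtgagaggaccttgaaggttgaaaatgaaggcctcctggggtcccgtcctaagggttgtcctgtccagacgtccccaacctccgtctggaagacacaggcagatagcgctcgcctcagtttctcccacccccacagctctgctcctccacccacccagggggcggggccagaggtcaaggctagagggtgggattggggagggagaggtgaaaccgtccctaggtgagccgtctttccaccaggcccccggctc
Sox2: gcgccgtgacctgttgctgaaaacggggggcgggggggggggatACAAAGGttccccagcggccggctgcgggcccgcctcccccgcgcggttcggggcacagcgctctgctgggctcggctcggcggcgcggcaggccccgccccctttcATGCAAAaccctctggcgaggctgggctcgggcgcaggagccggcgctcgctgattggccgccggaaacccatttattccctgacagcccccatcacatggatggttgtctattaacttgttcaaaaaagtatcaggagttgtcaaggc
Nanog: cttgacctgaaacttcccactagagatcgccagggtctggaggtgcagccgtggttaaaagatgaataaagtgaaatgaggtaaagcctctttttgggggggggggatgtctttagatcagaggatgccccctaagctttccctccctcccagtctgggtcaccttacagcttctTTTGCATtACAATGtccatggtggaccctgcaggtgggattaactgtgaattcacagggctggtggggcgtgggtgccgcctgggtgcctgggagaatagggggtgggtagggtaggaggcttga
In the *Nanog* window TTTGCAT began at position -75 from the start and ACAATG, the reverse complement of CATTGT, followed at -67 with 1 base between them. In the *Sox2* window ACAAAGG lay at -206 and ATGCAAA, the reverse complement of the shortened octamer, at -99. None of these letters occurred in the *Pou5f1* window shown, which says only that they are not in these 300 bases, and the window at another annotated *Pou5f1* start held AACAATG at -159. Over all 32851 windows of this length, 4.63% held the shortened octamer, 12.6% the shortened Sox-type motif, 5.88% ACAAAGG and 0.813% both shortened forms. The full octamer was in 1.74% of windows and CATTGTT in 3.78%, and neither was in the 3 windows shown. Windows were also at hand for *Lin28a* and *Utf1*, and a match is a description of letters, not evidence that a factor was bound.

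On the arrays all 10 genes were transcribed in every line. Signals are given on a log2 scale after quantile normalization between arrays, so that 1 unit is a doubling, and the level of 1 probe set is not set against that of another because probe sets differ in brightness. *Pou5f1*, *Sox2* and *Nanog* lay at or above the 97.4th percentile of probe sets on all 12 arrays, so that defining ESC markers were bright in every sample. *Dppa5a* was close to the top of every array, between 14.34 and 14.48, where an array has little room to register a further rise. The dimmest probe set was 1 of 3 for *Utf1* (1458333_x_at), between 3.57 and 4.23 and thus around the filter threshold of 3.94. It is part of the *Utf1* average, so *Utf1* is also given without it. Markers of fibroblasts, a possible feeder layer for these ESCs (the labels name feeders or gelatin without saying which sample had which), were also present, with a mean log2 signal from 6.48 to 7.97 over 20 measured markers of 22 listed. Before OHT this mean was 7.40 in the mock line and 6.51 and 6.81 in WT #1 and #3. In I53S #1, I53S #4 and I53A #1 it was 7.32, 7.03 and 6.75. Across the lines the median change of these markers with OHT was 0.65 for the mock line (19 of 20 above 0), 0.020 and 0.035 for WT #1 and #3, and 0.63 (20 of 20), 0.18 and 0.20 for I53S #1, I53S #4 and I53A #1. Fewer ESCs in a sample and less RNA of a gene per cell cannot be told apart in such bulk RNA.

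**Figure D1:**
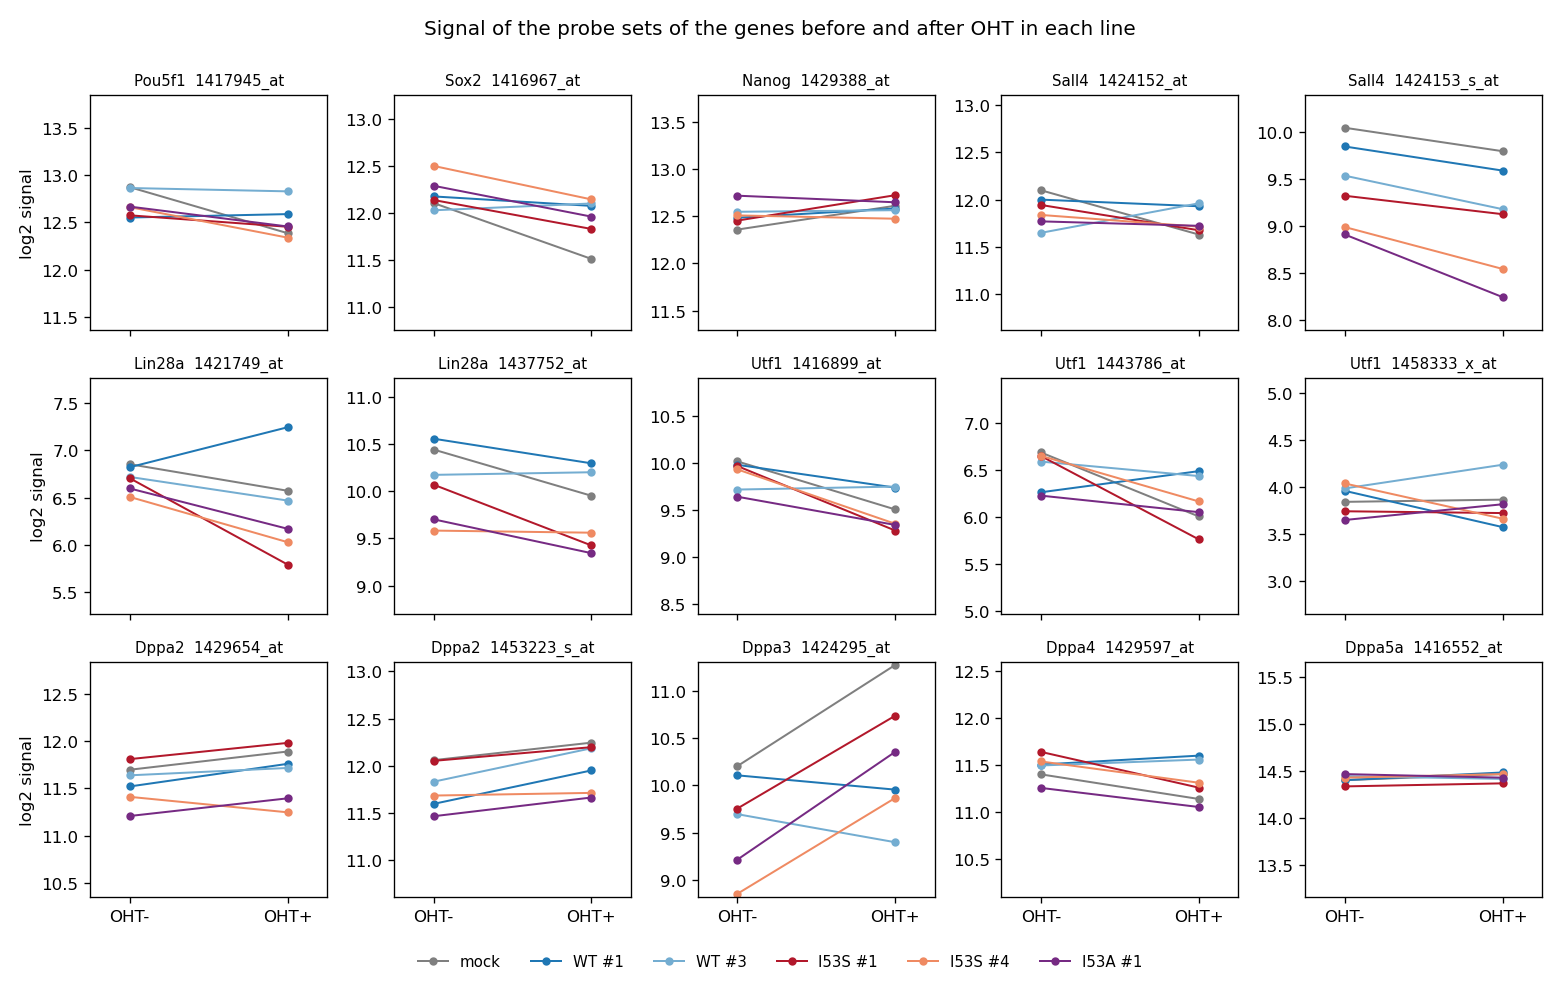
Log2 signal (y axis, on the same span in every panel) of the 15 probe sets before and after OHT (x axis). Each line joins the 2 arrays of 1 ESC line, so a point is 1 array without replicates. *Dppa3* rose in the mock line and the 3 mutant lines and had lower values after OHT in both WT lines. *Dppa5a* lay between 14.34 and 14.48 on all arrays after quantile normalization, which itself narrows values at the top of an array.

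Of the 10 genes, *Dppa3* was the 1 that passed the test after OHT in the main setting, and it was higher. Whether other members were called lower depended on the filter and the variance prior. In the 3 mutant lines 1 of 10 members was called higher, beside 4.90% of all genes tested, and 0 of 10 lower, beside 1.55%. In the mock line 1 of 10 was called higher, beside 1.29% of all genes, and 0 lower, beside 0.383%. In the WT lines limma called 0% of all genes and none of the members, with 1251 of the 16432 genes at an unadjusted p under 0.05. The differences between classes gave no called gene either (0%), with 2068 genes at an unadjusted p under 0.05 when the mutant lines were set against WT, 2360 when the mock line was, and 1322 when mock and mutant lines were compared. The remaining 9 members are therefore described by their values and intervals.

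Under 2 of the alternative settings, neither of which rescales the signals, some of these 9 members passed as lower. With trended and robust priors 5 of 10 members were called lower in the mutant lines, beside 5.20% of all genes: *Pou5f1* (limma adjusted p = 0.00858), *Sox2* (0.000699), *Sall4* (0.00573), *Lin28a* (0.00828) and *Dppa4* (0.00497). When only probe sets with a mean above the overall median were kept, 4 were called lower there, beside 5.93% of genes, namely *Sox2* (limma adjusted p = 0.0341), *Sall4* (0.0487), *Lin28a* (0.0439) and *Utf1* (0.0314). In the mock line the trended priors called *Pou5f1* (limma adjusted p = 0.00335), *Sox2* (0.00119) and *Sall4* (0.0483) lower, beside 3.20% of genes, and the stricter filter called *Sox2* (0.0462), beside 2.81%. *Sox2* was in each of these sets, while *Nanog*, *Dppa2* and *Dppa5a* were in none.

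*Dppa3* (probe set 1424295_at) is the gene in which the constructs parted most. Before OHT its log2 signal was 10.20 in the mock line, 10.11 and 9.70 in WT #1 and #3, 9.75 and 8.85 in I53S #1 and #4, and 9.21 in I53A #1. On day 2 the same lines read 11.28, 9.96 and 9.40, 10.74 and 9.87, and 10.36. The signal was higher after OHT in all 4 lines without WT Ring1B and lower in both WT lines. The gain was 1.07 with the empty vector and 0.99, 1.02 and 1.14 in I53S #1, I53S #4 and I53A #1, against -0.15 and -0.30 with WT Ring1B. The mutant gains were close to each other (SD 0.0841, n = 3), and none overlapped a WT line.

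In limma the rise was 1.05 for the mutants (SE 0.0896, 2.07-fold, adjusted p = 0.00666, n = 3 lines) and 1.07 for mock (SE 0.155, 2.11-fold, adjusted p = 0.0431), the latter resting on 1 line. With the values as deposited the mock value was 0.63 (limma adjusted p = 0.0715). The mock call is not firm: each of the 5 other lines was needed for it, and dropping any 1 of them raised limma's adjusted p to between 0.0824 and 0.0906. In the WT lines the value was -0.22 (SE 0.11, adjusted p = 0.719). The mutant and WT lines differed by 1.27 (SE 0.142, 95% interval 0.92 to 1.62, unadjusted p = 0.000129), and the adjusted p of 0.0881 in limma did not pass over 16432 genes. Mock minus WT was 1.3 (SE 0.19, limma adjusted p = 0.125), and mock minus mutant lines 0.025 (95% interval -0.42 to 0.47). The effects of the empty vector and of the mutants on *Dppa3* were thus not separable at this precision, and the interval leaves room for a mock value 0.42 below or 0.47 above that of the mutants. The mutant call held in limma when any 1 line was left out (adjusted p from 0.00695 to 0.046) and did not survive removal of the line block (adjusted p = 0.0874).

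Those starting levels bear on how the rise is read. Before OHT the mutant lines lay 0.63 below the WT lines in *Dppa3* (9.27 ± 0.46, SD, n = 3, against 9.90 ± 0.29, n = 2), a difference that did not pass (SE 0.282, limma adjusted p = 0.95). On day 2 the ranges overlapped, since I53S #4 at 9.87 remained under WT #1 at 9.96. The rise is therefore a difference within lines, and the level reached was not higher in each mutant line than in each WT line. Before OHT none of the 10 members differed between mutant and WT lines in limma, nor did any of the other genes (0%, with 861 at an unadjusted p under 0.05). The change of *Dppa3* was 1.02 and 1.14 in I53S #4 and I53A #1, where the fibroblast markers had median changes of 0.18 and 0.20. It was 0.99 and 1.07 in I53S #1 and the mock line, where they had 0.63 and 0.65. The part of these markers in the rise was not tested.

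*Pou5f1* and *Sox2*, the partners of the core circuit, had lower signals after OHT in each line without WT Ring1B. *Pou5f1* read 12.87 before and 12.39 after OHT in the mock line, 12.55 and 12.59 in WT #1, and 12.87 and 12.83 in WT #3. In I53S #1 it went from 12.58 to 12.45, in I53S #4 from 12.66 to 12.34 and in I53A #1 from 12.67 to 12.46. The changes of the mutant lines (-0.12, -0.32 and -0.21) all lay below those of the WT lines (0.036 and -0.036), and that of the mock line (-0.49) lay lowest. In limma this was -0.22 for the mutants (95% interval -0.44 to 0.0012, adjusted p = 0.214) and -0.49 for mock (adjusted p = 0.171). Neither passed in the main setting, and both passed with trended priors (adjusted p = 0.00858 and 0.00335).

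For *Sox2* the signal went from 12.11 to 11.51 in the mock line, from 12.18 to 12.08 in WT #1 and from 12.03 to 12.10 in WT #3. It went from 12.14 to 11.83 in I53S #1, from 12.50 to 12.15 in I53S #4 and from 12.29 to 11.96 in I53A #1. The 3 mutant changes, -0.31, -0.36 and -0.33, were nearly equal, with an SD of 0.0242. The mutant mean was -0.33 (95% interval -0.54 to -0.12, limma adjusted p = 0.088), the WT mean -0.014 (-0.28 to 0.25) and the mock value -0.59 (-0.96 to -0.22, limma adjusted p = 0.118). The mutant minus WT difference of -0.32 had an interval from -0.65 to 0.023. *Sox2* passed in both classes with trended priors (limma adjusted p = 0.000699 and 0.00119) and with the stricter filter (0.0341 and 0.0462). With the values as deposited it also passed for the mutants (-0.45, limma adjusted p = 0.0454) and for mock (-1.02, limma adjusted p = 0.0393), and *Pou5f1* for mock (-0.93, limma adjusted p = 0.0463), but on that scale the median of all genes also fell, by 0.34 for mock and 0.13 for the mutants.

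*Nanog*, the homeodomain factor of the circuit, had values on both sides of 0. Its signal went from 12.36 to 12.61 in the mock line, from 12.49 to 12.58 in WT #1, from 12.55 to 12.57 in WT #3, and from 12.45 to 12.72, 12.51 to 12.47 and 12.72 to 12.65 in I53S #1, I53S #4 and I53A #1. The WT values lay inside the range of the mutant values. The mutant mean was 0.055 (95% interval -0.20 to 0.31) and the WT mean 0.057 (-0.26 to 0.37), which leaves room in the mutant lines for a change of -0.20 or one of 0.31. The mock value of 0.25 did not pass in any setting and was -0.15 with the values as deposited, a scale on which the median of all genes was itself lower by 0.34.

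**Figure D2:**
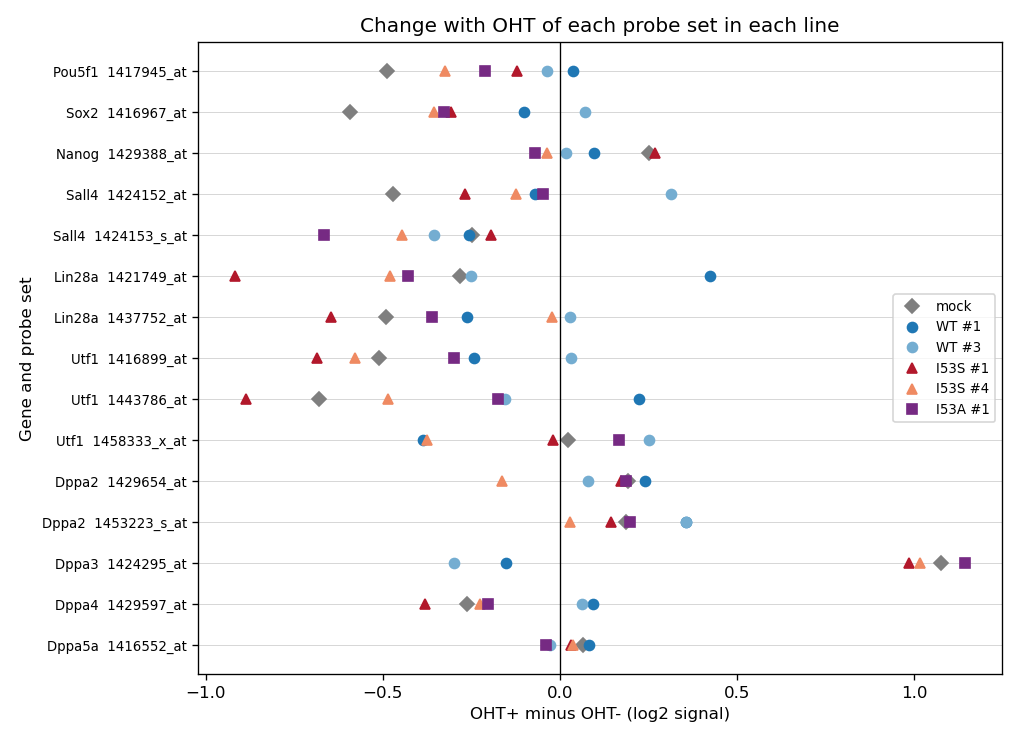
Change with OHT (x axis, OHT+ minus OHT- in log2 signal) of each probe set (y axis) in each of the 6 lines, with 1 point per line. The 4 lines without WT Ring1B lie apart from both WT lines for *Dppa3*, near 1, and to the left of them for *Pou5f1*, *Sox2* and *Dppa4*; for 1453223_s_at of *Dppa2* the WT points lie on top of each other.

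*Sall4*, *Lin28a* and *Utf1*, which act alongside the core factors, each have more than 1 probe set, and these did not always move alike. A probe set named _s_at or _x_at can also match other transcripts. For *Sall4*, 1424152_at had changes of -0.47 (mock), -0.070 and 0.31 (WT) and -0.27, -0.12 and -0.047 (mutant lines). The other probe set, 1424153_s_at, was lower after OHT in all 6 lines, with -0.25 for mock, -0.26 and -0.36 for WT and -0.20, -0.45 and -0.67 for the mutants. The WT lines thus separated from the mutant lines on neither probe set, and only the average did so (-0.29 for the mutants with a 95% interval from -0.51 to -0.075, limma adjusted p = 0.117, and -0.092 for WT).

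*Lin28a* had a mutant mean of -0.48, the lowest of the 10 gene averages as long as the dim probe set counts towards *Utf1* (95% interval -0.79 to -0.16, limma adjusted p = 0.0923), against -0.015 for WT and -0.39 for mock. Its brighter probe set, 1437752_at, read 10.07 and 9.43 in I53S #1, 9.58 and 9.56 in I53S #4, and 9.70 and 9.34 in I53A #1, before and after OHT. It read 10.44 and 9.95 in the mock line, 10.56 and 10.30 in WT #1, and 10.18 and 10.20 in WT #3. On this probe set I53S #4 (-0.022) overlapped the WT lines (-0.26 and 0.028). On the dimmer 1421749_at the mutant lines had -0.92, -0.48 and -0.43, while the WT lines spread from -0.25 to 0.42, and there the groups did not overlap.

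*Utf1* had values below 0 in the mock line and all 3 mutant lines on its brighter pair of probe sets, and values of opposite sign on that pair in each WT line. On 1416899_at the signal went from 9.97 to 9.28, 9.93 to 9.35 and 9.64 to 9.34 in I53S #1, I53S #4 and I53A #1, from 10.02 to 9.51 in the mock line, and from 9.98 to 9.74 and 9.72 to 9.75 with WT Ring1B. The mean change of the mutant lines was -0.52 ± 0.20 (SD, n = 3) on 1416899_at and -0.52 ± 0.36 on 1443786_at, and that of the WT lines -0.11 ± 0.19 and 0.035 ± 0.27 (n = 2). On 1443786_at, I53A #1 at -0.18 was close to WT #3 at -0.15. With the dim probe set 1458333_x_at in the average the mutant change was -0.37 (limma adjusted p = 0.131). A stricter filter, which dropped that probe set, gave -0.52 and a limma adjusted p of 0.0314 over the fewer genes it kept. Without it the changes were -0.79, -0.53 and -0.24 in I53S #1, I53S #4 and I53A #1 and -0.60 in the mock line, all below the -0.0090 and -0.061 of the WT lines.

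The paralogs *Dppa4* and *Dppa2* did not pass in the mutant lines in the main setting, and no test set one against the other. *Dppa4* (1429597_at) read 11.64 and 11.26 in I53S #1, 11.54 and 11.31 in I53S #4, and 11.26 and 11.06 in I53A #1, before and after OHT. It read 11.40 and 11.14 in the mock line, 11.51 and 11.60 in WT #1, and 11.50 and 11.56 in WT #3. All 3 mutant changes were below 0 and both WT changes above 0, as for 8.54% of all genes in 1 or the other direction. The mutant mean was -0.27 (95% interval -0.49 to -0.053, limma adjusted p = 0.139) and the WT mean 0.079 (-0.19 to 0.34), with a difference of -0.35 (-0.69 to -0.0057, limma adjusted p = 0.39). With trended priors the mutant value passed (limma adjusted p = 0.00497).

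*Dppa2* had small values above 0 in most lines. On 1453223_s_at the change was 0.36 with WT Ring1B in both lines, 0.15, 0.028 and 0.20 with the mutants and 0.19 with the empty vector. On 1429654_at it was 0.24 and 0.078 with WT Ring1B, 0.17, -0.16 and 0.19 with the mutants and 0.19 with the empty vector. The mutant lines lay below the WT lines on 1453223_s_at but not on 1429654_at. Averaged, *Dppa2* had 0.095 for the mutants (95% interval -0.14 to 0.33), 0.26 for WT (-0.031 to 0.55) and 0.19 for mock, and none passed in limma. With the values as deposited it had -0.20 for mock and -0.036 for the mutants, on a scale where the medians of all genes were lower by 0.34 and 0.13. *Dppa5a* had changes between -0.038 and 0.081 in all 6 lines, with a mutant mean of 0.011 (-0.20 to 0.22). At the top of an array quantile normalization gives a probe set the shared value of its rank, which itself narrows these changes. As deposited they ran from -0.14 in I53A #1 to 0.11 in WT #1.

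**Figure D3:**
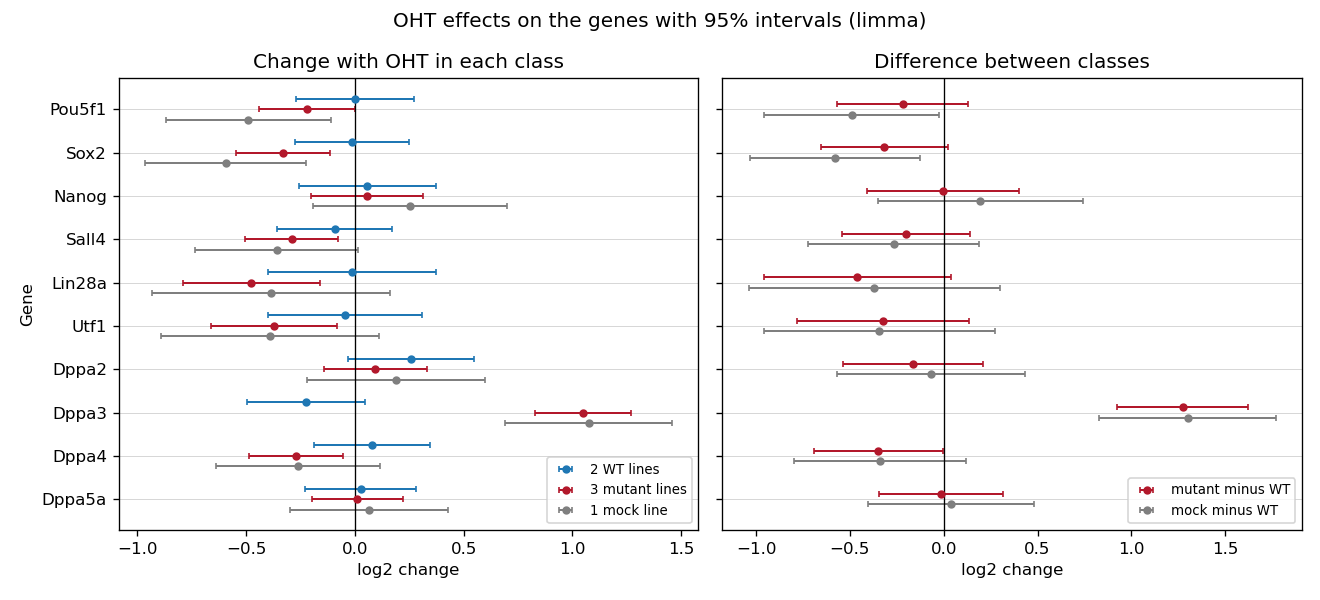
Left, change with OHT (x axis, log2) of each gene (y axis) in the 2 WT lines, the 3 mutant lines and the 1 mock line; right, the difference of the mutant and of the mock lines from the WT lines. Points are limma estimates and bars 95% intervals that are not adjusted for the number of genes; *Dppa3* is the gene whose intervals lie farthest from 0, with 1.05 in the mutant lines and 1.27 for mutant minus WT.

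Taking the averages per gene, the changes of all 3 mutant lines lay below those of both WT lines in 6 of 10 members (*Pou5f1*, *Sox2*, *Sall4*, *Lin28a*, *Dppa2* and *Dppa4*), beside 15.0% of all genes tested, and above them in 1 of 10 (*Dppa3*), beside 16.1%. With the stricter filter, which left the dim *Utf1* probe set out, *Utf1* joined those below to make 7 of 10, beside 17.4% of the genes it kept. The median change over the 10 members was -0.31 for mock, 0.059 and -0.0021 for WT #1 and #3, and -0.18, -0.24 and -0.15 for I53S #1, I53S #4 and I53A #1, while the median of all genes lay between -0.0093 and 0.0072 in every line. Mutant and mock values are both read against the same 2 WT lines and are not independent of each other. The line with the largest change of the fibroblast markers among the mutant lines, I53S #1, did not have the lowest member median, whereas the mock line had the highest marker median and the lowest member median, and the part of these markers in the members' changes was not tested beyond these values.

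Falls that passed the test were found among other genes of the pluripotency network, and their counts stand beside 1.55% of all genes called lower and 4.90% called higher in the mutant lines. A single call in a list of this size is not read as a result about the list. In the mutant lines 2 of 16 measured genes of the naive network passed lower and 1 higher: *Nr0b1*, encoding the nuclear receptor Dax1, fell by 1.32 (limma adjusted p = 0.00547), *Lifr*, the LIF receptor, fell by 0.55 (0.0271), and *Klf4* rose by 0.55 (0.0355), where the numbers in parentheses are limma adjusted p-values. The median change of this list was -0.22. *Klf4* was also higher after OHT in WT #1 and #3, by 0.21 and 0.31. Its mutant minus WT difference of 0.29 did not pass (limma adjusted p = 0.527). Among 17 measured other ESC-enriched genes 5 passed lower and 1 higher, with a median of -0.35. The falls were led by *Lefty1*, an inhibitor of Nodal signalling (1.12 lower in log2, adjusted p = 0.00941), *Eras*, a Ras family member (0.95 lower, adjusted p = 0.0166), and *Zscan10* (0.77 lower, adjusted p = 0.0177). In WT #1 and #3 *Lefty1* had -0.44 and -0.041, *Eras* -0.19 and 0.035, and *Zscan10* -0.14 and 0.20. Of 12 measured relatives of the members, 1 rose (*Pou4f1*, 0.93, limma adjusted p = 0.0357) and 1 fell (*Sall1*, 0.69 lower, limma adjusted p = 0.042). *Pou4f1* was also higher in WT #1 and #3, by 0.35 and 0.63, with a mutant minus WT difference of 0.44 (limma adjusted p = 0.571). No mutant minus WT difference passed in these lists. In the mock line 1 naive network gene and 2 other ESC-enriched genes passed, all of them lower, beside 0.383% of all genes.

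Lists of later or other states were read beside the members, against the same shares of 4.90% higher and 1.55% lower. Of 14 genes of the formative and primed epiblast 2 rose and 3 fell in the mutant lines, among them *Fgf8* (1.48, limma adjusted p = 0.00624), *Cdh2* (0.81, 0.0207) and *Lef1* (-0.72, 0.0429). *Fgf8* was also higher after OHT in WT #1 and #3, by 0.26 and 0.64. Its mutant minus WT difference was 1.03 (limma adjusted p = 0.148). *Cdh2* had -0.14 and 0.36 in these WT lines. In WT #1 and #3 *Lef1* had -0.42 and -0.64, so its value was below 0 in every line, and mutant minus WT was -0.18 (limma adjusted p = 0.793). Of 9 trophectoderm markers 5 rose, led by *Gata3* (1.72, limma adjusted p = 0.0137), *Eomes* (0.82, 0.0145) and *Krt8* (0.72, 0.0397), and none fell. *Gata3* was also higher after OHT in both WT lines, by 0.76 and 1.35, and its mutant minus WT difference of 0.66 did not pass (limma adjusted p = 0.492). *Krt8* had 0.21 and 0.16 in WT #1 and #3, and *Eomes* had -0.41 and -0.070. In the mutant lines 1 of 10 primitive endoderm markers rose (*Gata6*, 0.52, limma adjusted p = 0.0298) and 1 of 7 mesoderm markers (*Gsc*, 1.36, 0.0112). *Gata6* was also higher in WT #1 and #3, by 0.34 and 0.17, and its change in the mock line was 1.80. *Gsc* had 0.545 and -0.049 in the WT lines. None of 5 measured two-cell embryo genes passed in the mutant lines, the smallest p belonging to *Zfp352* (1.13, limma adjusted p = 0.0511) and *Tcstv1* (0.77, 0.0715). In the single mock line the median change was 2.29 for these genes, 0.65 for primitive endoderm markers and 0.78 for trophectoderm markers. It was -0.41 there for the formative and primed epiblast genes. Of 20 fibroblast markers 1 rose (*Thy1*, 0.67, limma adjusted p = 0.0186), and of 9 housekeeping genes 1 rose (*B2m*, 0.68, 0.0255). The single calls in 4 of these lists are not read as results about the lists. No gene of these lists passed in the WT lines, and none of their mutant minus WT differences passed.

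**Figure D4:**
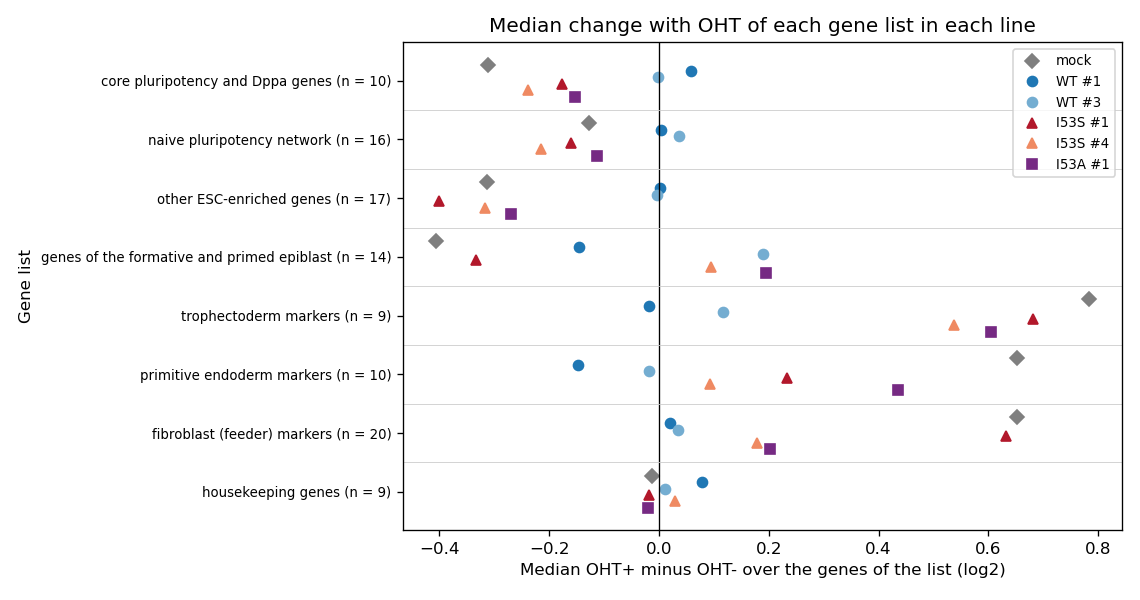
Median change with OHT (x axis, log2) of 8 gene lists (y axis, n is the number of measured genes) in each of the 6 lines, 1 point per line and no error. The core pluripotency and *Dppa* genes have medians from -0.31 to -0.15 in the mock and mutant lines and from -0.0021 to 0.059 in the WT lines, with medians of the trophectoderm markers on the other side of 0.

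Some members lie next to each other on the chromosome, and no test set the changes of such neighbours against each other. In the RefSeq order of GRCm38.p6, *Gdf3*, *Dppa3*, *Nanog* and *Slc2a3* follow each other, and in the mutant lines they had log2 changes of -0.36 (limma adjusted p = 0.0758), 1.05, 0.055 and 0.22 (limma adjusted p = 0.308). Neither neighbour of *Dppa3* passed. In a second run *Dppa4*, *Dppa2* and *Morc1*, a germ cell gene, are neighbours, and of these *Morc1* fell, by 1.07 (SE 0.125, limma adjusted p = 0.0124), with -1.38, -0.88 and -0.96 in I53S #1, I53S #4 and I53A #1, -1.34 with the empty vector, and -0.11 and -0.25 with WT Ring1B. Beside *Pou5f1*, *H2-Q10*, a class I histocompatibility gene with near-identical relatives that could share its probes, rose by 1.21 (SE 0.107, limma adjusted p = 0.00705), and *Tcf19* on the other side had -0.27 (limma adjusted p = 0.246). The nearest gene on each side of every member was looked up, and of those measured *Morc1*, *H2-Q10* and *Dppa3*, itself a member, passed in the mutant lines. Over all genes 4.90% passed higher there and 1.55% lower, and these calls are not read as a result about neighbours. The genes named here were singled out after their values had been seen.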

How the data were processed

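RNA of 12 samples was hybridized to Affymetrix GeneChip mouse genome arrays, and the authors deposited the signal of every probe set as log2 values. Per the labels these come from Affymetrix Expression Console and RMA, while the supporting methods name MAS5 and quantile normalization, and versions are not given in the sources used here. Array medians ran from 4.66 to 5.69, so values were quantile normalized here, which removes any overall shift between arrays. Of 45101 probe sets 64 were controls, 34945 had 1 gene symbol, 932 several and 9160 none in the platform annotation, and of 18193 symbols 18032 were in the RefSeq gene table. Probe sets whose highest signal passed 3.94, the 30th percentile, were kept (30374 with 1 symbol) and averaged into 16432 genes.

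In R 4.3.3, limma 3.58.1 (lmFit, eBayes, two-sided, 3 residual and 2.79 prior degrees of freedom) was run over all arrays blocked by line, with separate OHT effects for mock, WT and mutant lines. Levels before OHT were compared over those arrays alone. Calls are at an adjusted p (Benjamini-Hochberg, all genes) under 0.05. P-values reflect only the spread among these lines, which may be technical, and the mock class, with 1 line, borrows it from the others. The arrays of a line carry its number, and deviations from the class mean correlated within lines at 0.27 (WT) and 0.362 to 0.427 (mutant). No array was a copy of another (highest correlation 0.9891). The code was tested on simulated data. The number of arrays limits the precision.

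Members and lists were chosen with earlier results of these data known. Named are all members and, from each other list, up to 3 called genes with the largest change in the mutant lines, or else the 2 with the smallest p. Motifs were counted in RefSeq promoter windows (GRCm38.p6); protein sequences were not used here. Alternatives were other scalings, filters, probe set rules and priors, I53S alone as the mutant class, no block (for levels before OHT, the line as a random block with statmod 1.5.0), probe sets singly and each line left out.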

Additional observations from a re-analysis of the deposited data

Results flagged for a closer look

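The mutant and WT lines had OHT changes of opposite sign in every line for 2 of the 10 genes. For *Dppa3* the mutant minus WT difference was 1.27 (higher in 3 of 3 mutant lines, lower in 2 of 2 WT lines), and limma's test of that difference did not pass over all genes (adjusted p = 0.0881). For *Dppa4* the difference was -0.35 with the directions exchanged (limma adjusted p = 0.39). Opposite signs in all mutant and all WT lines occurred in 8.54% of all genes. Groups of 2 and 3 lines are too small to test for a sample that stands apart.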

How the results depend on the processing

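Over the alternatives, 691 of the values for single members kept their direction and side of the threshold, 22 passed where they had not, 10 no longer passed and 36 changed sign, none of the last passing in either setting. The *Dppa3* value was above 0 in the mutant and mock lines under each of them, with 0.91 to 1.08 in the mutant lines (adjusted p from 2.02e-06 to 0.0874) and 0.63 to 1.08 in the mock line (0.000174 to 0.433), the lowest mock value being that of the deposited scale. The number of members called in the mutant lines, 1, became 3 with the values as deposited, 5 when only probe sets with a mean above the overall median were kept, 6 with trended and robust priors and 0 with no replicate block. In the mock line it became 2, 2, 4 and 0 in the same order, 0 with I53S as the mutant class or with probe sets singly, and 0 without each of the 5 other lines (range 0 to 0). For mutant minus WT lines *Dppa3* passed, 1 for 0, with the median filter (adjusted p = 0.0297) and with trended priors (0.000105), and for mock minus WT lines 3 for 0 with trended priors. In limma the adjusted p of the mutant minus WT difference of *Dppa3* ran from 0.000105 to 0.515.

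The same priors and filter moved the counts over all genes, from 1060 to 2220 and 1781 in the mutant lines and from 275 to 1343 and 884 in the mock line, and for mutant minus WT from 0 to 272 and 47, and for mock minus WT from 0 to 453 and 17. No replicate block gave 564 and 98, I53S alone 153 and 0, and values as deposited 922 in the mock line and 41 for levels before OHT. As deposited, the mutant lines had 540 genes higher and 571 lower, against 805 and 255, and the mock line 175 and 747, against 212 and 63. Leaving out a line gave 153 to 1055 in the mutant lines, the lowest without I53A #1 (153), I53S #1 (177) and I53S #4 (193), and 704 and 720 without WT #1 and WT #3. Without any 1 of the 5 other lines 0 genes were called in the mock line, and the cause of these shifts was not tested.

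The median change over the members moved as deposited to -0.72 (mock), -0.26, -0.36 and -0.35 (I53S #1, I53S #4, I53A #1), with arrays centred on their medians to -0.16 (I53S #4) and -0.23 (I53A #1), with the brightest probe set to -0.37 (mock), -0.017 (WT #1) and -0.080 (I53S #4), and with the median filter to -0.21 (I53A #1).

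The values that changed sign were small. As deposited, where the median of all genes was lower by 0.34 for mock and 0.13 for the mutants, they were *Nanog* -0.091, *Dppa2* -0.036 and *Dppa5a* -0.068 for the mutants, *Pou5f1* -0.014 and *Dppa5a* -0.012 for WT, *Nanog* -0.15, *Dppa2* -0.20 and *Dppa5a* -0.13 for mock, *Nanog* -0.20 and *Dppa5a* -0.12 for mock minus WT, and *Dppa3* -0.28 for mock minus mutant lines. With centred arrays they were *Pou5f1* -0.014 and *Dppa5a* -0.011 for WT, *Nanog* 0.00014 and *Dppa5a* 0.078 for mutant minus WT, and *Dppa3* -0.037 for mock minus mutant lines. *Sall4* had 0.12 in the WT lines with its brightest probe set or with probe sets singly. With I53S alone *Nanog* had 0.060 and *Dppa5a* 0.0089 for mutant minus WT. Leaving out 1 line, the WT value ranged from -0.033 to 0.036 for *Pou5f1*, -0.10 to 0.071 for *Sox2*, -0.11 to 0.080 for *Lin28a*, -0.14 to 0.046 for *Utf1* and -0.025 to 0.078 for *Dppa5a*. For mutant minus WT it ranged from -0.11 to 0.060 for *Nanog* and -0.067 to 0.034 for *Dppa5a*, for mock minus WT from -0.017 to 0.083 for *Dppa5a*, for mock minus mutant from -0.010 to 0.070 for *Dppa3*, and in the mutant lines from -0.053 to 0.12 for *Nanog* and -0.0012 to 0.037 for *Dppa5a*.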
